A study of Rattus norvegicus with 12 samples.

Results

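Matrix metalloproteinases (MMPs) and their tissue inhibitors (TIMPs) were followed in RNA-Seq libraries of the striatum from 12 rats. The set held the 10 genes *Mmp2*, *Mmp9*, *Mmp14*, *Mmp15*, *Mmp16*, *Mmp17*, *Mmp24*, *Timp2*, *Timp3* and *Timp4*, taken by symbol from the 17337 genes of the count table. They were chosen by gene family with results of these data in view, among them the log2 fold change (log2FC) of *Mmp14* in non-addicted vs. MA12 rats. What follows describes these genes and is not independent evidence on them, and that log2FC is given without a p.

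All 12 were adult wild-type male Sprague–Dawley rats that had self-administered intravenous methamphetamine (MA), a psychostimulant, in daily sessions for 16 days, and each library came from 1 rat. The MA12 rats (n = 4) were killed 12 h and the MA24 rats (n = 4) 24 h after the last session. The rats were kept on a 12 h light-dark cycle, and the hour of the sessions is not given. Time since the session and time of day therefore cannot be told apart in MA24 vs. MA12. The third group (n = 4) is labelled non-addicted, and neither the labels nor the study's methods give its criterion or its time of tissue collection. Its labels give MA self-administration too, so by the labels none of the groups used here was free of the drug. The study describes saline, no-abstinence, MA12 and MA24 groups and none named non-addicted. Which of these, if any, the non-addicted rats belong to is not given. Lever pressing had to be stable for a rat to enter the study's MA groups. No library labelled as saline or as no-abstinence was among the 12 used here.

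Counts per rat ranged from 17908962 to 23850284, and the 10 genes held between 0.0444% and 0.0623% of them. All 10 had counts in every rat and passed the filters on low counts and low variance in all 3 comparisons. A letter N closes the number of every MA24 rat, of 2 MA12 rats (4N and 7N) and of no non-addicted rat, and what N stands for is not given in the sources used here. In non-addicted vs. MA24 the kind of number and the group therefore cannot be told apart. Markers of striatal projection neurons had a summed level of 13700 to 18200 CPM (counts scaled to a fixed library total), against 2.69 to 10.2 CPM for those of cortex neurons. Rats of 1 group differed by more than counting noise, and p-values measure the spread between rats.

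MMPs are zinc-dependent endopeptidases that are made as inactive proenzymes and cleave extracellular matrix and cell surface proteins once their propeptide is removed. TIMPs bind the active site of MMPs and hold them inactive. In the brain these enzymes act on the basement membrane of vessels, on the matrix around neurons and on synaptic adhesion proteins, and they have been studied in relation to synaptic plasticity and psychostimulant exposure.

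In MA24 vs. MA12, *Mmp14* was the only one of the 10 genes that met the criteria for a differentially expressed gene (DEG), and it was lower in MA24 rats. Its lower level in non-addicted than in MA12 rats was known when the genes were chosen and is described only. The comparison with MA24 uses the same MA12 rats. The other 9 genes did not pass in any of the 3 comparisons. A DEG had a Benjamini-Hochberg adjusted p below 0.05 over all genes tested with edgeR's quasi-likelihood test, and a fold change (FC) of at least 1.5.

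*Mmp14* encodes MT1-MMP, a membrane-anchored collagenase that, together with TIMP-2, activates pro-MMP-2 at the cell surface. Levels are given as log2 CPM, scaled between libraries by TMM and with a prior count of 2. In MA12 rats 21, 31, 4N and 7N the *Mmp14* level was 3.80, 4.17, 4.22 and 3.38 log2 CPM, from 329, 429, 393 and 183 counts. In MA24 rats 9N, 14N, 15N and 16N it was 2.94, 2.52, 3.18 and 3.37 log2 CPM, from 176, 114, 175 and 194 counts. In non-addicted rats 9, 11, 12 and 13 it was 2.33, 2.67, 3.12 and 2.42 log2 CPM, from 95, 127, 209 and 101 counts. Every MA12 rat lay above every rat of the other groups, but the gap between the lowest MA12 rat (7N) and the highest MA24 rat (16N) was small. Group means were 3.89 ± 0.39 in MA12, 3.001 ± 0.37 in MA24 and 2.63 ± 0.35 log2 CPM in non-addicted rats (SD, n = 4 each).

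In MA24 vs. MA12, *Mmp14* was lower by 0.90 on the log2 scale (SE 0.20), or 1.87-fold (adjusted p = 0.0160, edgeR). Its MA12 values also enter the log2FC that was in view when the genes were chosen. The p-values and the non-overlap given here are therefore not independent of that choice. The exact two-sided permutation test gave p = 0.0286, the smallest that 4 rats against 4 allow. It was the 1 DEG among the 10 genes, where 2.45% of all 10754 genes tested were DEGs and 1.72% were lower DEGs. Non-overlap with MA24 lower, seen for *Mmp14* alone among the 10, held for 8.40% of all genes tested. A change of larger size was found for 3.60% of the genes. The call did not hold when only rats numbered with N were used (log2FC -0.82, adjusted p = 0.0769, edgeR) or with the kind of number as a covariate (-0.84, adjusted p = 0.114, edgeR), while the direction and size stayed close. It held without any single rat, with a log2FC between -1.04 and -0.77.

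In non-addicted vs. MA12, the *Mmp14* log2FC was -1.27 (SE 0.20), a level 2.42-fold lower in non-addicted rats. This comparison shares its MA12 rats with the previous one. This log2FC was in view when the genes were chosen, so that *Mmp14* met the DEG criteria and that its groups did not overlap restate the choice, and nothing is read from them. For all genes tested, 0.251% of 10758 were DEGs (0.149% as lower) and 3.60% had non-addicted rats below MA12 rats without overlap. The *Mmp14* call was lost when the variance filter was left out and when at least 10 counts in every library were required, with the log2FC at -1.28 in both. Only 5 of 12657 and 4 of 11455 genes were DEGs in these settings. In non-addicted vs. MA24 the *Mmp14* log2FC was -0.37 (SE 0.22, adjusted p = 0.371, edgeR), which was not a detectable difference, and 0 of the 10 genes were DEGs, where 0.456% of 10744 genes were. Leaving aside *Mmp14*, which was in view at the choice, *Mmp15* passed an unadjusted edgeR p below 0.05 in non-addicted vs. MA12, as did 12.3% of all genes. In non-addicted vs. MA24, *Mmp15*, *Mmp16* and *Timp4* did, as did 17.5% of all genes. There DESeq2 and edgeR's likelihood ratio test also called 0 of the 10, against 1.17% and 1.52% of all genes.

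**Figure D1:**
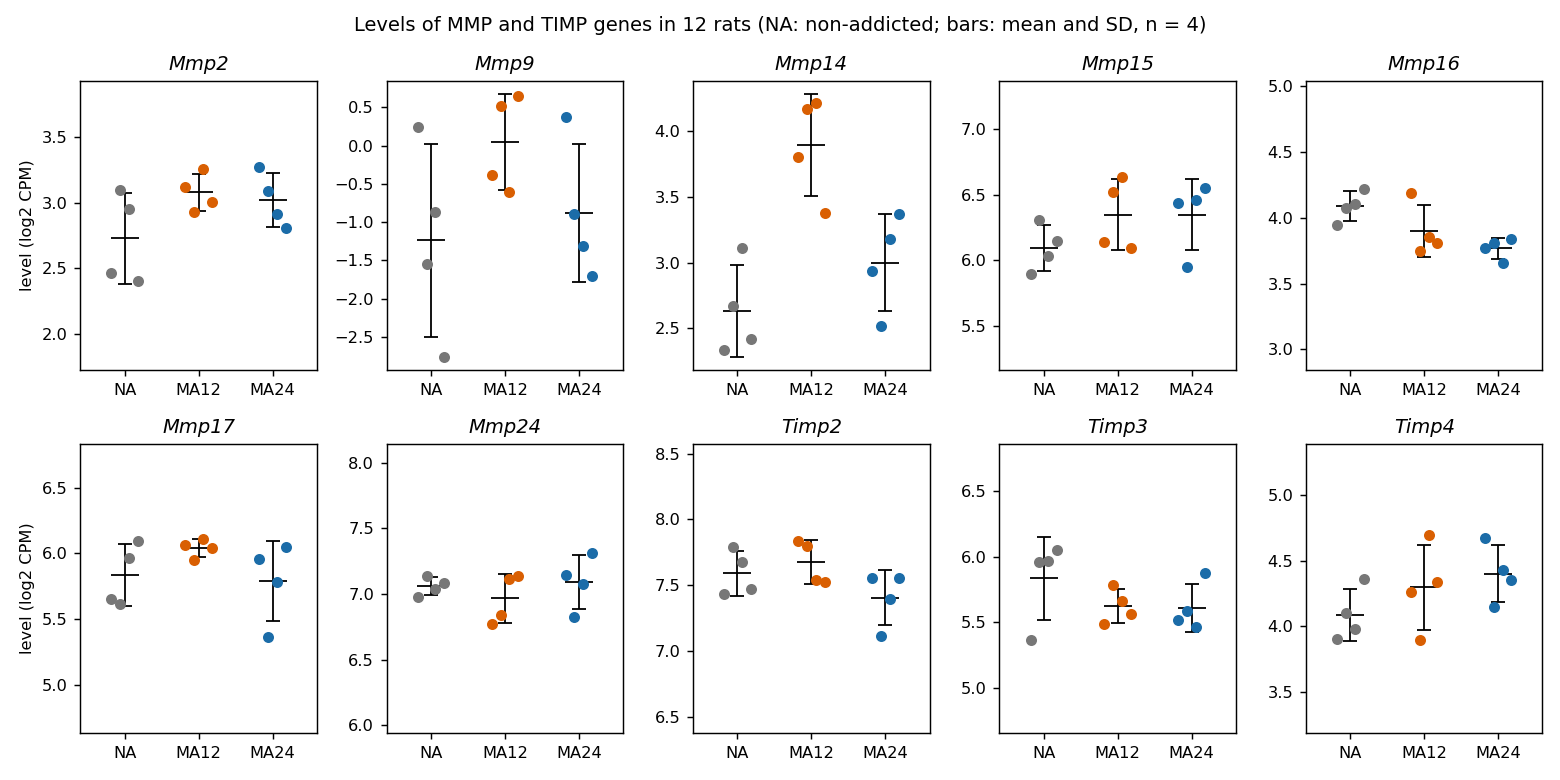
Level of each gene in log2 CPM (y axis) in the 4 non-addicted (NA, grey), 4 MA12 (orange) and 4 MA24 (blue) rats, with 1 point per rat and bars for the mean and SD. The *Mmp14* level was 3.38 to 4.22 log2 CPM in MA12 rats, above the 2.33 to 3.37 log2 CPM of the other 8 rats, while *Mmp9* spread over -2.76 to 0.64 log2 CPM.

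**Figure D2:**
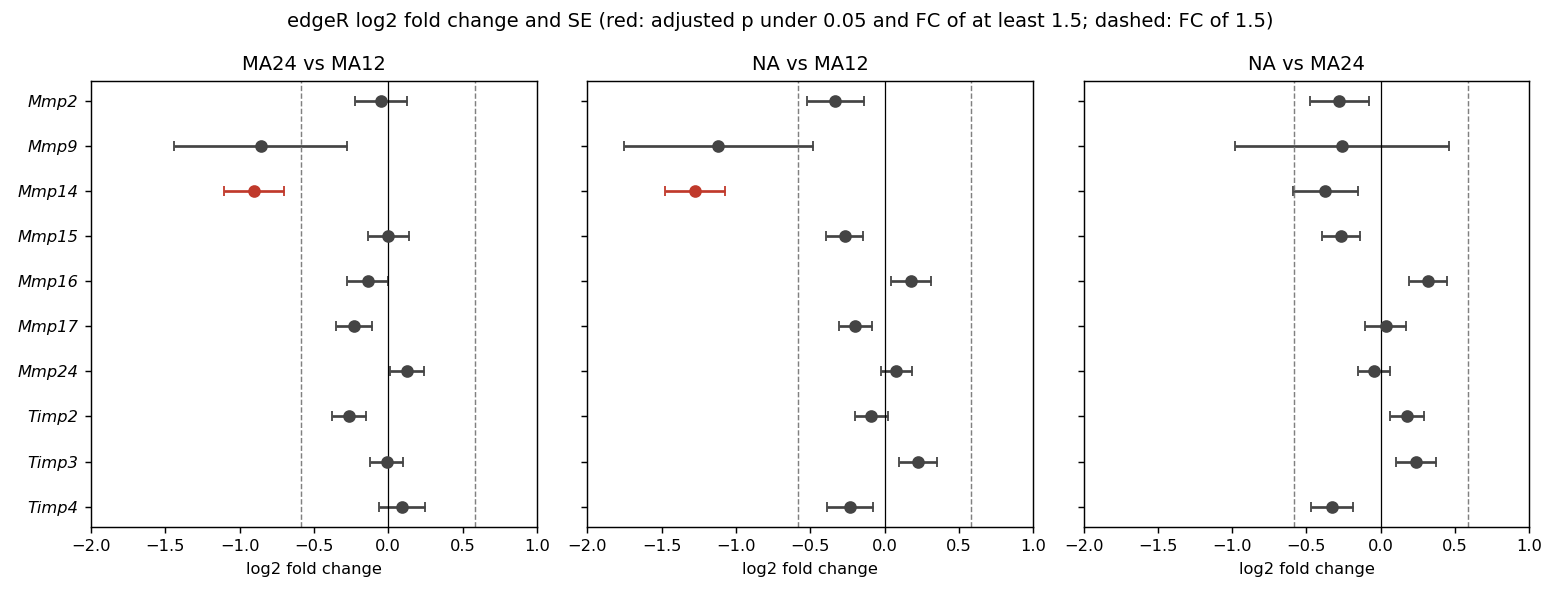
Log2FC (x axis) of the 10 genes in each comparison, with bars for the SE from edgeR, dashed lines at an FC of 1.5 and DEGs in red. *Mmp14* lay at -0.90 in MA24 vs. MA12 and at -1.27 in non-addicted (NA) vs. MA12, and no other gene was a DEG.

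The striatum was sequenced in bulk, so fewer cells of a type and less RNA per cell cannot be told apart. *Mmp14* was set beside markers of mural cells, the pericytes and smooth muscle cells of vessels. All 9 mural markers were detected, with a summed level of 119 to 171 CPM in non-addicted, 179 to 297 CPM in MA12 and 181 to 219 CPM in MA24 rats. Of the 9, *Rgs5* (log2FC -0.72) and *Abcc9* (-0.73) were DEGs in MA24 vs. MA12, both lower in MA24, with a median log2FC of -0.23 over the list against -0.02 over all genes. *Abcc9* (-1.10) and *Acta2* (-0.81) were DEGs in non-addicted vs. MA12, with a list median of -0.69 against -0.01. In non-addicted vs. MA24, 0 were DEGs and the median was -0.45 against 0.00. Over all genes tested, 2.45%, 0.251% and 0.456% were DEGs in these comparisons, in the order given. *Rgs5* and *Abcc9* lost the call in MA24 vs. MA12 without MA12 rat 31, with only rats numbered with N and with the kind of number as a covariate, and *Acta2* lost it in non-addicted vs. MA12 under 9 of 17 alternatives. Of the 10 endothelial markers 9 were in the table, and their sum was 355 to 497, 470 to 599 and 555 to 607 CPM in non-addicted, MA12 and MA24 rats. Unlike *Mmp14*, this sum was not lower in MA24 than in MA12, but a large part of it was *Cldn5* (148 to 302 CPM over the rats). Single endothelial markers went in both directions in MA24 vs. MA12, with a list median log2FC of 0.13 and 0 DEGs. The endothelial marker *Kdr*, a VEGF receptor, was lower in non-addicted rats than in MA12 (-1.08) and MA24 (-0.85), calls lost under 2 of 17 and 9 of 15 alternatives. Of 6 fibroblast markers 5 were in the table, and they summed to 19.4 to 27 CPM in non-addicted, 28 to 33.1 CPM in MA12 and 23.8 to 32.9 CPM in MA24 rats, with *Col1a2* at 0 in all 12. Like the mural sum, the fibroblast sum was lower in every non-addicted than in every MA12 rat, with a median log2FC of -0.44 over the 4 genes tested and 0 DEGs. The part of these cell types in the *Mmp14* result was not tested.

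Ratios within a rat need no scaling between libraries, and these pairs were chosen after the values were seen. The log2 ratio of *Mmp14* to *Pdgfrb* counts, a growth factor receptor of mural cells, was -1.73 ± 0.19 in MA12, -2.42 ± 0.28 in MA24 and -2.46 ± 0.26 in non-addicted rats (SD, n = 4 each). Its lowest MA12 value (-2.002) was above the highest of the other groups (-2.12 in both). Against *Abcc9*, a potassium channel subunit of pericytes, the log2 ratio ranged from -0.94 to -0.65 in MA12, -1.33 to -0.77 in MA24 and -1.42 to -0.80 in non-addicted rats, and the 3 groups overlapped. In these values MA12 rats differed from both other groups more in *Mmp14* than in *Pdgfrb*, while the MA24 and non-addicted ratios were close. The difference of *Mmp14* from *Abcc9* was within the spread between rats. Ratios to the other mural markers were not taken. The higher *Mmp14* of MA12 than of non-addicted rats was in view at the choice of the genes.

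Among 10764 genes with a mean count of at least 50, the genes whose levels over the 12 rats were most like *Mmp14* were *Surf4*, *Abcc9* and *Cald1*. *Surf4*, a cargo receptor of the endoplasmic reticulum, had a Pearson r of 0.956 and a Spearman rho of 0.979. For *Abcc9* they were 0.938 and 0.909, and for *Cald1*, the actin-binding caldesmon, 0.936 and 0.923. Because the groups differ in *Mmp14*, r was also taken with the group means removed, and was 0.869, 0.798 and 0.807 for the 3 genes. Without the 2 rats farthest from the *Mmp14* median it was 0.922, 0.867 and 0.875. These are the extremes of all genes ranked, over libraries shared by both genes, and are given as a description.

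**Figure D3:**
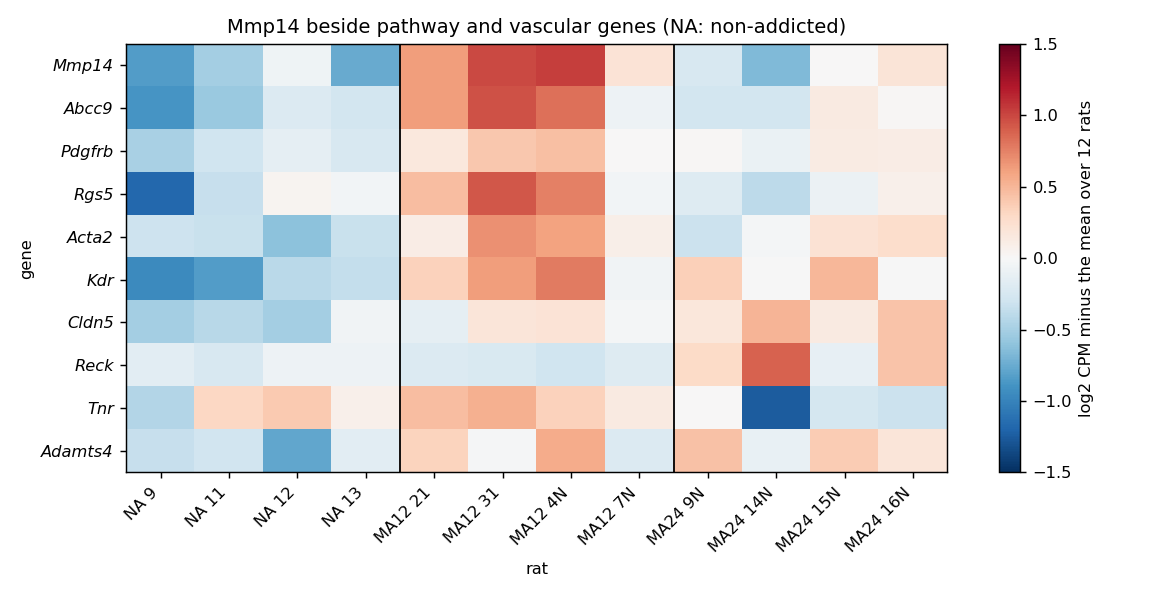
Level of *Mmp14* and of pathway and vascular genes in each of the 12 rats (columns, ordered by group and separated by black lines; NA, non-addicted) as the difference in log2 CPM from the gene's mean over all rats (colour scale). *Mmp14*, *Abcc9* and *Rgs5* were high in MA12 rats 21, 31 and 4N, while MA24 rat 14N had the highest *Reck* (5.73 log2 CPM) and the lowest *Tnr* (3.89 log2 CPM).

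The secreted gelatinases did not change detectably. *Mmp9*, gelatinase B, degrades denatured collagen and basement membrane collagen and takes part in late phases of synaptic plasticity. Its counts were 21, 5, 11 and 1 in non-addicted rats 9, 11, 12 and 13, then 16, 32, 12 and 26 in MA12 rats 21, 31, 4N and 7N, and 28, 9, 6 and 4 in MA24 rats 9N, 14N, 15N and 16N. A count of 1 has an exact 95% Poisson interval of 0.0253 to 5.57 and a count of 32 one of 21.9 to 45.2, for counting error only. The 4 MA12 rats were in the upper part of the range, but 1 non-addicted and 1 MA24 rat were among them. The mean *Mmp9* level was 0.05 ± 0.63 in MA12, -0.88 ± 0.90 in MA24 and -1.23 ± 1.26 log2 CPM in non-addicted rats (SD, n = 4 each). The *Mmp9* log2FC was -0.86 (SE 0.58, adjusted p = 0.377, edgeR) in MA24 vs. MA12 and -1.12 (SE 0.64, adjusted p = 0.505, edgeR) in non-addicted vs. MA12. Single rats moved these values by more than 1.5 times. Over rats left out, the *Mmp9* log2FC ran from -1.63 (without MA24 rat 9N) to -0.60 in MA24 vs. MA12 and from -1.94 (without non-addicted rat 9) to -0.74 in non-addicted vs. MA12, and it was not a DEG in any of these. The wider SE than for *Mmp14* went with both low counts and a spread between rats beyond counting error, which were not separated. Neutrophils store *Mmp9* protein, and the 4 neutrophil markers summed to 1.35 to 2.65 CPM in non-addicted, 0.188 to 0.961 CPM in MA12 and 0.296 to 1.13 CPM in MA24 rats. This sum rests on low counts, mostly of *S100a9* (20 to 39 counts in non-addicted, 3 to 21 in MA12 and 5 to 17 in MA24 rats). None of the other neutrophil markers had more than 12 counts in a rat. The sum was highest in the group with the lowest mean *Mmp9*, and the part of neutrophils in the *Mmp9* values was not tested.

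*Mmp2*, gelatinase A, is the substrate that MT1-MMP activates. Its level was 2.41 to 3.10 log2 CPM in non-addicted, 2.93 to 3.26 log2 CPM in MA12 and 2.81 to 3.27 log2 CPM in MA24 rats. The groups overlapped, with a *Mmp2* log2FC of -0.05 (SE 0.17) in MA24 vs. MA12, -0.33 (SE 0.19) in non-addicted vs. MA12 and -0.28 (SE 0.20) in non-addicted vs. MA24. The corresponding edgeR adjusted p-values were 0.895, 0.518 and 0.459.

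*Mmp15*, encoding MT2-MMP, is the membrane-type relative whose levels moved most like those of *Mmp14* over the rats. Its level was 5.89, 6.31, 6.03 and 6.15 log2 CPM in non-addicted rats, with the rats in the order used above. It was 6.14, 6.52, 6.63 and 6.09 log2 CPM at 12 h and 6.43, 5.95, 6.46 and 6.55 log2 CPM at 24 h. MA12 and MA24 rats covered nearly the same range, and the *Mmp15* log2FC between them was 0.00 (SE 0.14, adjusted p = 0.998, edgeR). Non-addicted rats were lower on average, by a log2FC of -0.27 against each MA group (SE 0.12 with MA12 and 0.13 with MA24), and overlapped with both. The edgeR adjusted p for *Mmp15* was 0.391 against MA12 and 0.278 against MA24. Over the 45 pairs of the 10 genes, *Mmp14* and *Mmp15* had the highest r, 0.638 over 12 rats and 0.740 with the group means removed. The lowest was that of *Mmp9* and *Timp3*, -0.635 and -0.627.

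*Mmp16*, encoding MT3-MMP, was the only one of the 10 genes with non-addicted and MA24 rats apart, in the direction opposite to *Mmp14*. Its level was 3.95, 4.08, 4.11 and 4.22 log2 CPM in non-addicted rats, 4.19, 3.75, 3.85 and 3.81 log2 CPM at 12 h and 3.77, 3.81, 3.66 and 3.84 log2 CPM at 24 h. Non-addicted rats were all above the MA24 rats, and MA12 rat 21 stood with the non-addicted rats while the other 3 MA12 rats lay at the MA24 levels. The *Mmp16* log2FC in non-addicted vs. MA24 was 0.32 (SE 0.13) with an edgeR adjusted p of 0.218, so it was not a DEG. The exact two-sided permutation test for *Mmp16* gave p = 0.0286, unadjusted and the smallest possible, and 5.10% of all genes tested had non-addicted rats above MA24 rats without overlap. In the comparisons with MA12 the *Mmp16* log2FC was -0.14 (SE 0.14, MA24) and 0.18 (SE 0.13, non-addicted), with edgeR adjusted p-values of 0.568 and 0.636.

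The remaining 2 membrane-type genes were not DEGs either. *Mmp17*, encoding the lipid-anchored MT4-MMP, ranged from 5.36 log2 CPM in MA24 rat 14N to 6.11 log2 CPM in MA12 rat 4N, with group means of 5.83 ± 0.24, 6.04 ± 0.07 and 5.79 ± 0.30 log2 CPM in non-addicted, MA12 and MA24 rats (SD, n = 4 each). *Mmp24*, encoding MT5-MMP, which is known for its expression in neurons, ranged from 6.77 to 7.31 log2 CPM, with means of 7.06 ± 0.07, 6.97 ± 0.19 and 7.09 ± 0.20 log2 CPM. The log2FC of *Mmp17* lay between -0.23 and 0.03 and that of *Mmp24* between -0.05 and 0.13 over the 3 comparisons, with no edgeR adjusted p below 0.263.

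None of the 3 TIMPs was a DEG. *Timp2*, whose protein both inhibits MMPs and takes part in pro-MMP-2 activation by MT1-MMP, had levels of 7.43, 7.79, 7.68 and 7.47 log2 CPM in non-addicted rats. They were 7.84, 7.80, 7.54 and 7.52 log2 CPM in MA12 rats and 7.56, 7.11, 7.40 and 7.55 log2 CPM in MA24 rats. *Timp2* was lower on average at 24 h, where rat 14N was the lowest of all 12, but the groups overlapped, with 2 MA24 rats above both of the lower MA12 rats. The *Timp2* log2FC in MA24 vs. MA12 was -0.27 (SE 0.11), with an edgeR adjusted p of 0.162, and it passed an unadjusted p below 0.05, as did 23.6% of all genes. Against non-addicted rats the differences were smaller, at -0.09 (SE 0.11) for non-addicted vs. MA12 and 0.18 (SE 0.11) for non-addicted vs. MA24.

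*Timp3* binds the matrix and inhibits ADAM proteases as well as MMPs. Its level was 5.37, 5.96, 5.96 and 6.05 log2 CPM in non-addicted rats, 5.49 to 5.79 log2 CPM in MA12 rats and 5.46 to 5.88 log2 CPM in MA24 rats. Rat 9 stood below the other 3 non-addicted rats, which were above all MA12 and MA24 rats. The *Timp3* log2FC was 0.22 (SE 0.13, adjusted p = 0.498, edgeR) in non-addicted vs. MA12 and 0.24 (SE 0.13, adjusted p = 0.358, edgeR) in non-addicted vs. MA24.

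*Timp4*, the inhibitor with the largest range of group means among the 3, had levels of 3.90, 4.10, 3.98 and 4.36 log2 CPM in non-addicted rats, 4.26, 3.90, 4.69 and 4.34 log2 CPM at 12 h and 4.68, 4.15, 4.43 and 4.35 log2 CPM at 24 h. Group means were 4.09 ± 0.20 in non-addicted, 4.30 ± 0.33 in MA12 and 4.40 ± 0.22 log2 CPM in MA24 rats (SD, n = 4 each), and neighbouring groups differed by less than the larger SD. The *Timp4* log2FC was -0.33 (SE 0.14) in non-addicted vs. MA24, with an edgeR adjusted p of 0.247. The 3 genes most like *Timp4* over the 12 rats were *Hr*, a corepressor of nuclear receptors (r 0.934, rho 0.902), the metalloproteinase gene *Adam19* (0.930, 0.923) and *Fa2h*, which hydroxylates fatty acids of myelin lipids (0.921, 0.853). With the group means removed r was 0.941, 0.911 and 0.906. The 6 oligodendrocyte markers summed to 11700 to 17300 CPM in non-addicted, 12100 to 21700 CPM in MA12 and 18100 to 21200 CPM in MA24 rats, and their part in the *Timp4* values was not tested.

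Ratios within a rat were also taken among the 10 genes, to see which of them *Mmp14* moved against. The log2 ratio of *Mmp14* to *Mmp15* counts was -2.46 ± 0.18 in MA12, -3.36 ± 0.15 in MA24 and -3.48 ± 0.37 in non-addicted rats (SD, n = 4 each). The lowest MA12 ratio (-2.72) was above the highest in MA24 (-3.19) and in non-addicted rats (-2.93). The higher *Mmp14* of MA12 than of non-addicted rats was in view when the genes were chosen. The place of MA12 rats in the *Mmp14* ratios restates that choice in part and is a description only. The share of other genes with such a separation was not taken. The log2 ratio of *Mmp14* to *Timp2* was -3.79 ± 0.38 in MA12, -4.42 ± 0.24 in MA24 and -4.98 ± 0.27 in non-addicted rats, with the lowest MA12 rat (-4.16) just above the highest MA24 rat (-4.20). Against *Mmp2* it was 0.82 ± 0.38, -0.02 ± 0.53 and -0.10 ± 0.26, and MA12 overlapped with MA24 but not with non-addicted rats. The *Mmp2* to *Timp2* ratio overlapped between all 3 groups, at -4.61 ± 0.26 in MA12, -4.40 ± 0.31 in MA24 and -4.88 ± 0.19 in non-addicted rats.

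**Figure D4:**
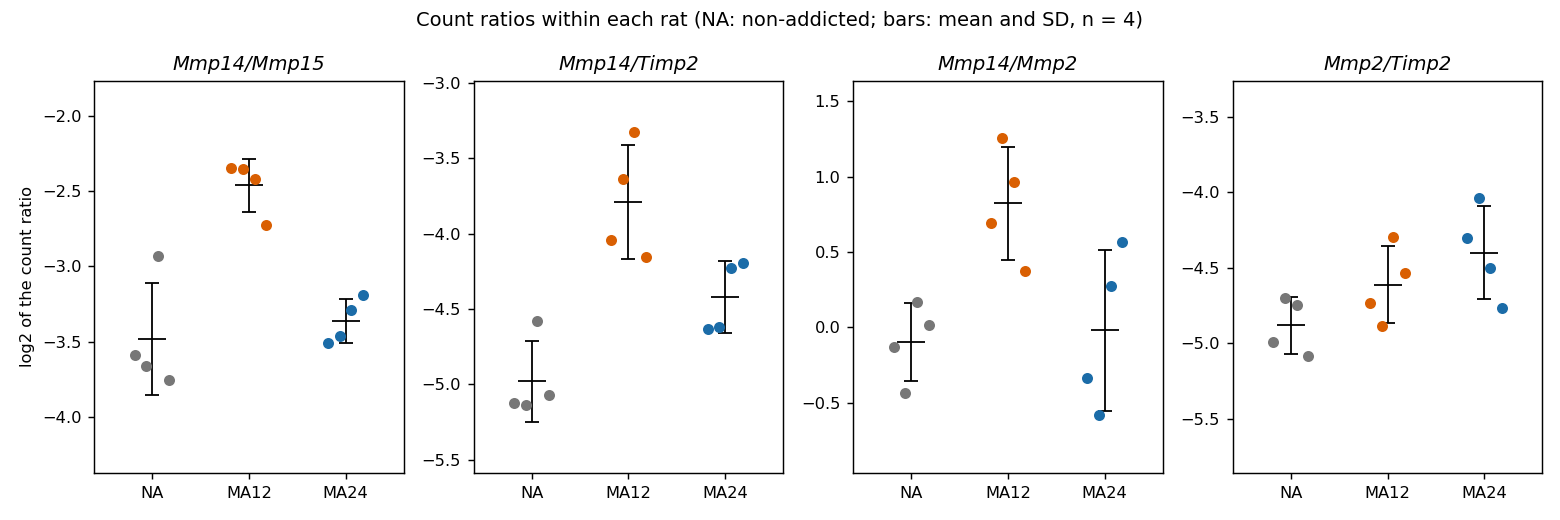
Log2 ratio of the counts of pairs of genes within each rat (y axis), by group (NA, non-addicted), with 1 point per rat and bars for the mean and SD. The MA12 rats lay above all others for *Mmp14*/*Mmp15* (-2.72 and higher, against -2.93 and lower), while the groups overlapped for *Mmp2*/*Timp2*.

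As a group, the 10 genes had a median log2FC of -0.09 in MA24 vs. MA12, -0.22 in non-addicted vs. MA12 and -0.16 in non-addicted vs. MA24, against -0.02, -0.01 and 0.00 over all genes tested. In MA24 vs. MA12, 10% of all genes had a log2FC below -0.47 and 10% one above 0.34, and *Mmp14* and *Mmp9* were the members beyond these limits. In non-addicted vs. MA12 the limits were -0.36 and 0.30, and the same pair lay beyond them. In non-addicted vs. MA24 they were -0.33 and 0.38, and *Mmp14* (-0.37) was the only member beyond them.

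**Figure D5:**
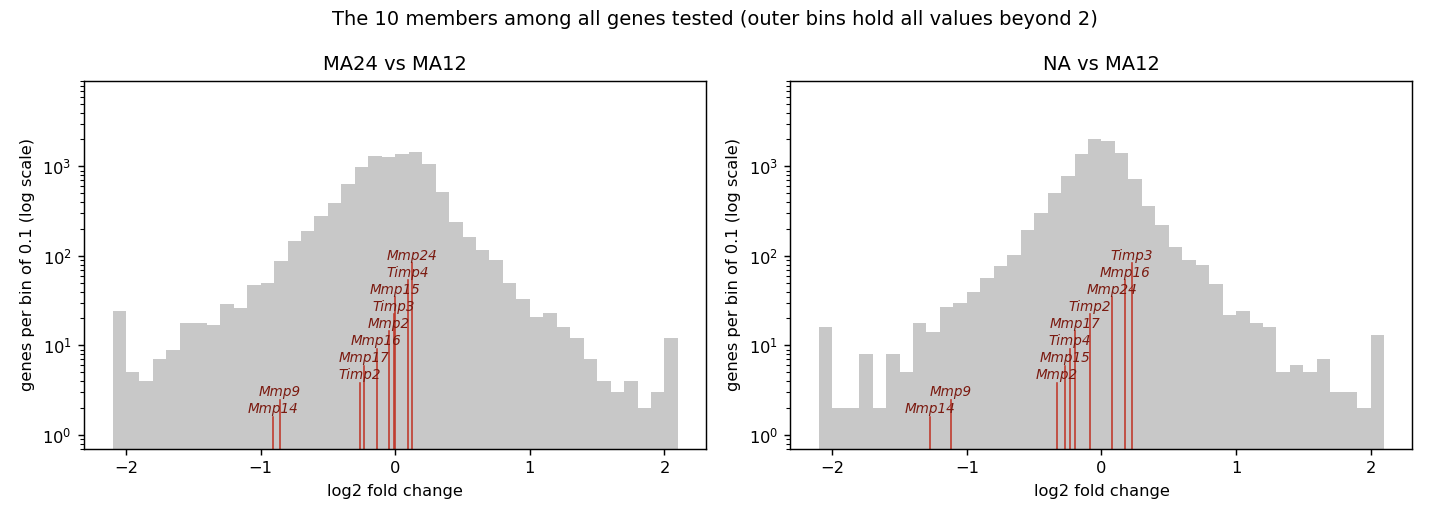
Number of genes per log2FC bin (grey, log scale on the y axis) in MA24 vs. MA12 and in non-addicted (NA) vs. MA12, with the 10 genes as red lines whose heights only separate the names. *Mmp14* (-0.90 and -1.27) and *Mmp9* (-0.86 and -1.12) lay in the lower tail, and the other 8 between -0.33 and 0.22.

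Of 16 other MMP and TIMP genes listed, 15 were in the table. *Mmp1*, *Mmp12*, *Mmp20* and *Mmp27* were at 0 in all rats, and *Mmp3*, *Mmp7*, *Mmp8*, *Mmp10*, *Mmp13* and *Mmp21* had at most 8 counts in a rat. *Mmp11* (20 to 73 counts), *Mmp19* (18 to 55), *Mmp23* (14 to 42), *Mmp28* (28 to 90) and *Timp1* (6 to 50) were tested, and none was a DEG in any comparison. In non-addicted vs. MA12, *Mmp28*, encoding epilysin, had a log2FC of -0.86 (SE 0.30, adjusted p = 0.228, edgeR). The others went in the opposite direction. *Timp1* had a log2FC of 0.76 (SE 0.54, adjusted p = 0.610, edgeR) and *Mmp11*, encoding stromelysin-3, one of 0.67 (SE 0.32, adjusted p = 0.413, edgeR). For *Mmp23* it was 0.61 (SE 0.41, adjusted p = 0.574, edgeR) and for *Mmp19* 0.19 (SE 0.37, adjusted p = 0.891, edgeR). The groups overlapped for *Timp1*, *Mmp23* and *Mmp19*. For *Mmp28* and *Mmp11* no non-addicted rat fell within the MA12 range, a separation found for 7.10% of all genes tested.

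Genes that activate, anchor or clear MMPs gave 1 DEG of 17 tested in MA24 vs. MA12. Of all genes tested, 2.45% were DEGs in either direction and 0.735% were higher DEGs. *Reck*, a membrane-anchored inhibitor of several MMPs, rose by a log2FC of 0.65 (SE 0.15, adjusted p = 0.0212, edgeR), from 4.54 to 4.66 log2 CPM in MA12 to 4.72 to 5.73 log2 CPM in MA24 rats. The MA12 rats were close together and the MA24 rats wide apart, with rat 14N highest. Without rat 14N the *Reck* log2FC was 0.45 with an edgeR adjusted p of 0.0625, and the call was also lost with only rats numbered with N (0.67, adjusted p = 0.0631) and with the kind of number as a covariate (0.66, adjusted p = 0.127), at a log2FC as large as with all 8 rats. In non-addicted vs. MA12 0 of 15 tested were DEGs, and in non-addicted vs. MA24 *Cldn5* was the 1 of 17. In the latter, 0.456% of all genes were DEGs in either direction and 0.130% were lower DEGs. *Cldn5* encodes a tight junction protein of brain endothelium that MMPs can cleave, and is also among the endothelial markers. It was 7.21 to 7.67 log2 CPM in non-addicted and 7.86 to 8.24 log2 CPM in MA24 rats (log2FC -0.68, SE 0.12, adjusted p = 0.0241, edgeR), and its call was lost under 7 of 15 alternatives.

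Among ADAM and ADAMTS metalloproteinases, 0 of 11 tested were DEGs in both comparisons with MA12. Over all genes tested, 2.45% were DEGs in MA24 vs. MA12, 0.251% in non-addicted vs. MA12 and 0.456% in non-addicted vs. MA24. *Adamts4*, an aggrecanase, was the 1 of 10 tested in non-addicted vs. MA24, at 4.89 to 5.50 log2 CPM in non-addicted and 5.55 to 6.11 log2 CPM in MA24 rats (log2FC -0.62, SE 0.14, adjusted p = 0.0497, edgeR). Its call was lost under 9 of 15 alternatives. In MA24 vs. MA12, *Adam10*, the main alpha-secretase, had an adjusted p of 0.0369 (edgeR) at a log2FC of -0.40, and *Adamts10* one of 0.0458 at 0.55, both short of the FC of 1.5.

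Of the matrix and cell surface substrates, 1 of 28 tested was a DEG in MA24 vs. MA12, 0 of 27 in non-addicted vs. MA12 and 0 of 28 in non-addicted vs. MA24. Over all genes tested, 2.45%, 0.251% and 0.456% were DEGs in these comparisons. *Tnr*, encoding tenascin-R of perineuronal nets, fell from 5.26 to 5.67 log2 CPM in MA12 rats to 3.89 to 5.14 log2 CPM in MA24 rats (log2FC -0.76, SE 0.18, adjusted p = 0.0195, edgeR). Rat 14N had the lowest *Tnr*, and without it the log2FC was -0.56, short of the FC threshold. The call was also lost with only rats numbered with N (-0.62, adjusted p = 0.104, edgeR) and with the kind of number as a covariate (-0.64, adjusted p = 0.155, edgeR). *Icam5*, a dendritic adhesion protein that MMPs cleave, was at 8.70 to 8.94 log2 CPM in MA24 and 8.23 to 8.36 log2 CPM in MA12 rats. Its log2FC of 0.51 (adjusted p = 0.00729, edgeR) did not reach the FC threshold. In non-addicted vs. MA12 its log2FC was 0.44 (adjusted p = 0.0699, edgeR), with every non-addicted rat above every MA12 rat. A separation in either direction was found there for 7.10% of all genes tested. *Icam5* was named after its values were seen. In the same list, *Cdh2* (-0.33) was lower in every MA24 than in every MA12 rat, as were 8.40% of all genes tested. *Nlgn1* (-0.32) and *Nlgn3* (-0.27) were lower on average. The list median in MA24 vs. MA12 was 0.03, against -0.02 over all genes.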

How the data were processed

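Striatal RNA of 12 rats was sequenced as paired-end poly-A libraries, made with a kit that does not mark strand. The authors removed adapters with Cutadapt 1.18, mapped reads to rn6 using STAR 2.7.0e and assigned them to genes using featureCounts. The submitters' processing notes also name HTSeq 0.12.4, without a role. The deposited values are raw counts per gene, without normalization. Reads of overlapping genes and near-identical copies are uncertain, since the counting settings are not given in the sources used here. No coordinates are given, because no rn6 annotation was used.

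All 12 columns were used, with groups taken from the labels. Each comparison used only its 8 libraries. Genes entered at a mean count above 4, less the 15% that varied least in log2 CPM, a reading of the study's filters. The whole table was tested with edgeR 4.0.16 in R 4.3.3 (TMM, glmQLFit and glmQLFTest), with Benjamini-Hochberg adjustment over all genes tested. DEG thresholds were 0.05 for the adjusted p and 1.5 for FC. The fit was tested on simulated data. Single values were also compared by exact permutation over 70 splits. Poisson intervals cover counting error only. Figures and summaries used Python 3.11.15, pandas 2.3.3 and matplotlib 3.10.9.

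The 10 genes, the pathway and marker lists and the naming rule were chosen with earlier results of these data known. Named were all 10 genes, the other MMP and TIMP genes with any count, every list gene that was a DEG, and the 3 genes with the highest r to *Mmp14* and to the TIMP with the largest range of group means. *Adam10*, *Adamts10*, *Icam5*, *Cdh2*, *Nlgn1*, *Nlgn3*, *Pdgfrb* and *S100a9*, and listed genes at 0, were named after their values were seen. Markers of astrocytes, oligodendrocyte precursors, microglia, ependymal cells and choroid plexus were also summed. Alternatives were DESeq2 1.42.0, the likelihood ratio test, RLE factors, other filters, all 3 groups in 1 fit, each rat left out, rats of 1 kind of number, the kind of number as a covariate, a prior count of 0.5 and CPM without TMM. For list genes outside the 10 these were added after the data were seen.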

Additional observations from a re-analysis of the deposited data

Results flagged for a closer look

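*Timp3* in non-addicted rat 9 (5.37 log2 CPM) stood apart from the other 3 non-addicted rats (5.96 to 6.05 log2 CPM). Its gap to the nearest rat was 0.866 of the group's range, above Dixon's 95% critical value for 4 samples. With 30 groups examined, chance would be expected to flag 1.5, so a single case is no more than chance gives. Rat 9 had the lowest level of its group for 7 of the 10 genes, which share its library and are not independent.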

How the results depend on the processing

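The number of DEGs among the 10 genes stayed at 1 in MA24 vs. MA12 in every alternative but 2: it was 0 with only rats numbered with N and 0 with the kind of number as a covariate. These 2 settings called 1.08% and 0.437% of all genes. In non-addicted vs. MA12 it was 0 without the variance filter and 0 with at least 10 counts in every library, and otherwise 1. Over the whole table these 2 settings called only 5 of 12657 and 4 of 11455 genes. In non-addicted vs. MA24 it was 0 in all 15 alternatives. The whole table held 0 DEGs there without the variance filter, with at least 10 counts and with all 3 groups in the fit. It also held 0 without non-addicted rat 12. Those settings could call no member, and the calls of list genes lost in them were lost with all others. Leaving out each rat gave 1 to 1, 1 to 1 and 0 to 0. The call in non-addicted vs. MA12 is that of *Mmp14*, whose log2FC there was in view when the genes were chosen. It restates that choice, and nothing is read from how often it held. No paired analysis was possible because the groups share no rat numbers. Over 490 alternatives of the 30 log2FC values, the sign turned in 31, for 9 values, none past the threshold (lowest adjusted p 0.736, edgeR); the cause was not tested. In MA24 vs. MA12, *Timp3* turned to 0.0013 with DESeq2 and with RLE factors and to 0.016 with rats numbered with N, and ran from -0.11 to 0.045 over rats left out. *Mmp15* turned to -0.00049 without a filter, -0.00082 with at least 10 counts, -0.011 with rats numbered with N and -0.028 with the covariate (-0.073 to 0.11 over rats left out). *Timp4* turned to -0.10 and -0.12 with rats numbered with N and the covariate (-0.027 to 0.24), *Mmp24* to -0.015 and -0.032, and *Mmp2* ran from -0.14 to 0.018. In non-addicted vs. MA12, *Timp4* turned to 0.018 with rats numbered without N and to 0.0055 with the covariate. In non-addicted vs. MA24, over rats left out, *Mmp17* ran from -0.094 to 0.12, *Mmp9* from -1.09 to 0.51 (without MA24 rat 9N) and *Mmp24* from -0.13 to 0.033. All 60 group levels moved by less than 1 SD with a prior count of 0.5 or without TMM. Kind of number and group are confounded in non-addicted vs. MA24, and 4 rats against 4 cannot give an exact p below 0.0286. *Mmp9* rests on counts of 1 to 32.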

Other observations

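Marker lists not set beside a gene above also held DEGs in these comparisons. Over all genes tested, 2.45% were DEGs in MA24 vs. MA12, 0.251% in non-addicted vs. MA12 and 0.456% in non-addicted vs. MA24. Among 6 astrocyte markers the glutamate transporter *Slc1a2* fell in MA24 vs. MA12 (log2FC -0.70, adjusted p = 0.0328, edgeR), a call lost under 10 of 17 alternatives, and the list summed to 1820 to 2580 CPM over all 12 rats. Among 4 ependymal markers *Foxj1* (log2FC 1.08) and *Rsph1* (1.20), genes of motile cilia, were higher in non-addicted than in MA24 rats (both adjusted p = 0.0354, edgeR). The ependymal list summed to 39.2 to 101 CPM in non-addicted, 26.9 to 71.5 CPM in MA12 and 28.1 to 45.2 CPM in MA24 rats, and both calls were lost under 9 of 15 alternatives. Choroid plexus markers summed to 23.6 CPM in non-addicted rat 9 and to 6.51 to 9.31 CPM in the other non-addicted rats. In MA12 and MA24 rats they summed to 3.29 to 6.98 CPM, and the list gave 0 DEGs. Microglial markers (189 to 297 CPM) and oligodendrocyte precursor markers (280 to 381 CPM) gave 0 DEGs in any comparison.

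MA24 rat 14N had the lowest level of its group for 6 of the 10 MMP and TIMP genes (*Mmp14*, *Mmp15*, *Mmp17*, *Mmp24*, *Timp2* and *Timp4*), and the 10 genes held 0.0444% of its counts against 0.0535% to 0.0592% in the other MA24 rats. Without it, the *Mmp14* log2FC in MA24 vs. MA12 was -0.77 (adjusted p = 0.0359, edgeR) instead of -0.90.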
